A study of Homo sapiens with 7 samples.

Results

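MYCN, a transcription factor of the MYC family, pairs with MAX to bind DNA, mostly at E-box motifs. It sits at promoters and enhancers of genes for growth and metabolism, and in neuroblastomas with an amplified MYCN gene it also spreads to many weaker sites in open chromatin. The sites described here are those at the end of the long arm of chromosome 16, around the terminal band 16q24. By the RefSeq gene order (GRCh38.p14), this end of the chromosome carries, from the centromere side to the telomere, GSE1, a subunit of histone deacetylase complexes, IRF8, a transcription factor of myeloid cells, and the forkhead genes FOXF1, FOXC2 and FOXL1. Further out lie CDT1, which licenses DNA replication, CBFA2T3, a transcriptional corepressor, ANKRD11, a chromatin regulator, FANCA, a DNA repair gene, and TUBB3, which encodes a neuronal tubulin. These genes are background only. The peak positions are on hg19, so no summit was assigned to a gene, and the bases under the summits were not used here.

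Each summit is the position of locally highest ChIP signal inside a called interval. The members were defined by position: all summits of the list of the sensitive cells on chromosome 16 at or beyond 84 Mb. The region was selected on the peak density of its bin from 85 to 86 Mb, so the densities, and every other value from the same list, are descriptions and were not tested. The rule found 473 of the 64657 summits of the list, against 2116 on the rest of chromosome 16. They run from 84001818 to 90172834 and lie in 369 separate intervals, none of which crosses the boundary. All positions are on hg19, counted from 1.

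The data are MYCN ChIP-seq from Kelly cells, an established neuroblastoma line with amplified MYCN and an activating ALK mutation. TAE684-sensitive cells were given DMSO and TAE684-resistant cells the ALK inhibitor TAE684 at 1 µM, for 48 h each. The labels describe 7 samples, namely 2 MYCN ChIP and 1 input of the sensitive cells and 2 MYCN ChIP and 2 input of the resistant cells, where input is chromatin sequenced without an antibody. Both ChIP samples of a state share 1 peak list, so no value has a replicate error, and since the resistant list is a copy of the sensitive one (all 473 member rows are identical), the states were not compared.

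At the boundary, the summits just inside were at 84001818, 84002082 and 84047556, with fold enrichments of 7.41, 12.2 and 5.16. Those just outside were at 83960418, 83986688 and 83990559, with 3.69, 10.4 and 3.13. Here and below, fold enrichment is the authors' ratio of ChIP signal to local background at the summit. Strong and weak summits lie on both sides. The boundary was set by position, and these few summits cannot show whether the signal changes there.

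The members are numerous and mostly of low fold enrichment. Over 6.17 Mb up to the last peak there were 76.6 summits per Mb (95% Poisson interval 69.9 to 83.9), against 25.2 (24.1 to 26.3) on the rest of the chromosome. The density was 3.04 times as high (2.75 to 3.36), and 1.64 times as high (1.11 to 2.37) when only summits with a fold enrichment of at least 10 were counted. The member intervals covered 145 kb, or 2.34% of the region, against 0.803% of the rest of the chromosome. Among its 7 bins of 1 Mb the number of summits ran from 13 to 147 with a median of 68, whereas the 71 occupied bins of the rest of the chromosome had a median of 23.

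**Figure D1:**
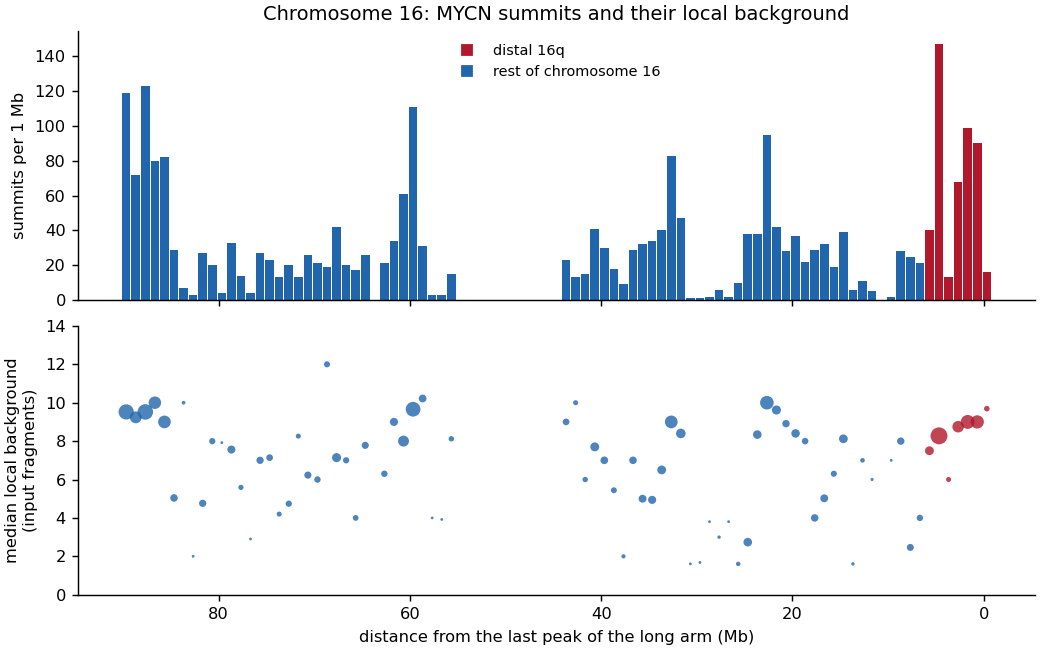
Summits per 1 Mb along chromosome 16 (top) and the median local background of the summits in each bin (bottom, point area growing with the number of summits), against distance from the last peak of the long arm in Mb. Distal 16q is red and the rest of the chromosome blue; the tallest bar is the bin with 147 summits, and the opposite end of the chromosome is also dense.

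The opposite end of the chromosome is as dense. The first 6.17 Mb of the short arm held 511 summits, 82.8 per Mb (75.8 to 90.3), in 341 intervals. This stretch was chosen as a comparison after the densities were seen. High density is therefore shared by both ends of chromosome 16. It is not confined to them, as interior 1-Mb bins starting at 30, 67 and 57 Mb held 111, 95 and 83 summits. The ends were next compared by the width and height of their sites. The median interval was 272 bp wide in distal 16q, 385 bp at the short arm end and 310 bp on the whole rest of the chromosome. It was 285 bp on the long arm up to 84 Mb and 279 bp in the whole list, so the members are narrow beside the short arm and close to the list in width. Of the member intervals 19.2% held more than 1 summit (exact binomial 95% interval 15.3 to 23.6). This share was 32.8% (27.9 to 38.1) at the short arm end and 26.1% (23.9 to 28.4) on the rest of the chromosome. It was 23.3% (20.2 to 26.6) on the long arm up to 84 Mb and 23.6% (23.2 to 24.0) in the whole list, both with intervals that overlap that of the members. The intervals of shares, medians and densities cover counting error only, and neighbouring summits are not independent, so they are no test.

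Fold enrichment was low in distal 16q. Its median was 4.72 (4.48 to 4.93, from order statistics), with quartiles of 3.65 and 6.49 and a range from 2.2 to 20. The median was 5.40 (5.25 to 5.53) on the rest of the chromosome and 5.24 (4.93 to 5.55) at the short arm end. A fold enrichment of at least 10 was reached by 33 members, or 6.98% (4.85 to 9.66), while 12% of all summits of the list, 12.9% (11.5 to 14.4) of those on the rest of chromosome 16 and 12.9% (10.1 to 16.1) of those at the short arm end reached it. The difference ran through most of the distribution: the lower quartiles were 3.65 and 3.89, and the upper 10% began at 9.10 and 11.0. The weakest sites were alike, with the lowest 10% below 2.99 and 3.03. Of the 1000 summits of highest fold enrichment in the list, 3 were members, and of the 1000 with most ChIP fragments, 7 were. A share equal to that of the members in the list, 0.732%, would be 7.32.

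**Figure D2:**
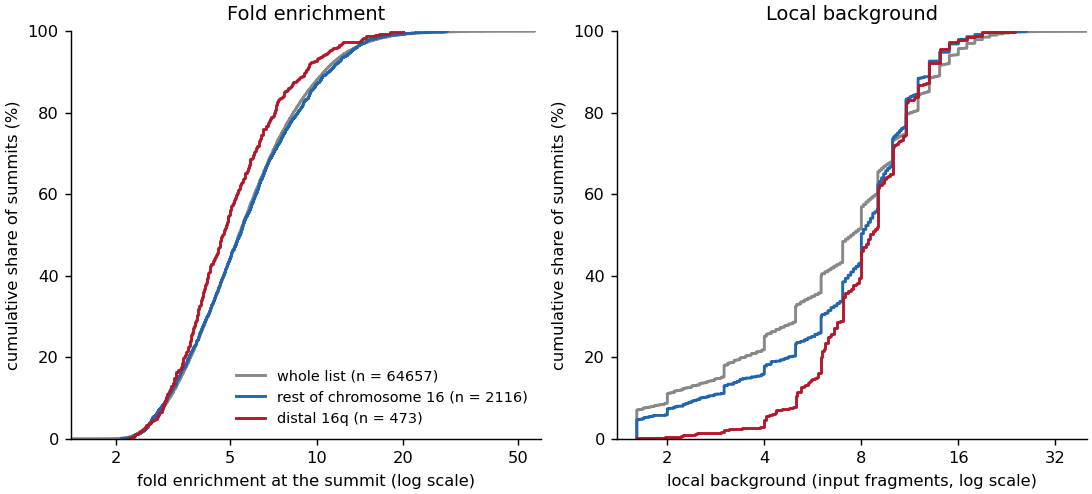
Cumulative share of summits, in percent, by fold enrichment (left) and by local background in input fragments (right), both on log axes, for distal 16q (red, n = 473), the rest of chromosome 16 (blue, n = 2116) and the whole list (grey, n = 64657). The red curve of fold enrichment lies left of the others above its lowest part, and the red curve of the background starts later, with few summits below 4.

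Fold enrichment divides by the background, so the ChIP fragments over each summit and the local background were recovered from the deposited fold enrichment and p-value. The median number of ChIP fragments was 68 in distal 16q (62 to 73), 68 on the rest of the chromosome (66 to 71) and 83 at the short arm end (76 to 91). It was 63 in the whole list, close to the members' median. The median local background, expressed as input fragments, was 8.54 (8.00 to 9.0), 8.00 (8.00 to 8.26) and 9.24 (9.0 to 9.80). The medians of the background were thus close, and the members differed from the rest of the chromosome at its low end. The lowest 10% of members had a background of up to 5.0, against 2.55 on the rest of the chromosome. The short arm end, with 6.0, shared this lack of low backgrounds. Only 1 of 473 members (0.211%, 0.00535 to 1.17) was at the genome-wide mean of 1.61 input fragments, the lowest value the peak caller uses. On the rest of the chromosome 95 summits were at that value (4.49%, 3.65 to 5.46), and at the short arm end 1 of 511.

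Summits were then compared at like backgrounds. At 4 to 8 input fragments, 196 members had a median of 52 ChIP fragments (47 to 54) and 688 summits on the rest of the chromosome had 58 (55 to 62). At 8 to 12 input fragments, 193 members had a median of 77 (71 to 85) and 806 summits elsewhere on the chromosome had 91 (87 to 95). In these 2 ranges a fold enrichment of at least 10 was reached by 8.67% (5.13 to 13.5) and 6.74% (3.63 to 11.2) of the members, against 14% (11.5 to 16.8) and 11.7% (9.53 to 14.1), with intervals that overlap in both ranges. In ChIP fragments the members were lower over these ranges, which hold most of them, with intervals of the medians that do not overlap. Above 12 input fragments, 62 members had a median of 112 ChIP fragments (90 to 137) and 245 other summits had 108 (96 to 116), with no lower value in distal 16q. Up to 4 input fragments there were only 22 members, with a median of 31 (26 to 42) against 33 (31 to 34). The short arm end, at 8 to 12 input fragments, had a median of 102 (92 to 117), and 16.2% of its summits there reached a fold enrichment of 10. At 4 to 8 it had a median of 56 (53 to 61) and 8.67%, the same share as the members.

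**Figure D3:**
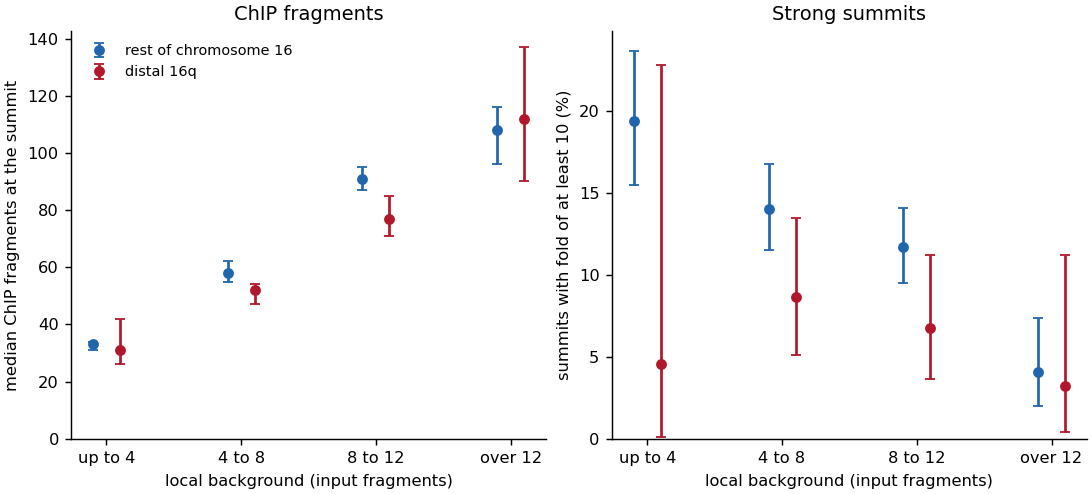
Median ChIP fragments per summit (left) and percent of summits with a fold enrichment of at least 10 (right) in 4 ranges of local background, for distal 16q (red) and the rest of chromosome 16 (blue). Bars are 95% intervals for counting error (order statistics left, exact binomial right); between 4 and 12 input fragments the red points lie below the blue ones, and the bars of the ChIP fragments do not overlap there.

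Within the region the sites fall into a dense block, a sparse stretch and a long, moderately dense terminal part. The block is the longest run of 100-kb bins with at least 20 summits each, and the sparse stretch the longest run with fewer than 10, both limits set after the values were seen. The dense block, from 85.2 to 85.7 Mb, held 120 summits, or 25.4% of the members, in 85 intervals. This is a density of 240 summits per Mb. The sparse stretch follows directly, from 85.7 to 87.4 Mb, with 31 summits, 18.2 per Mb. The terminal part, from 87.4 Mb on, had 266 summits, 95.9 per Mb, and the part before the dense block had 56, 46.7 per Mb.

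**Figure D4:**
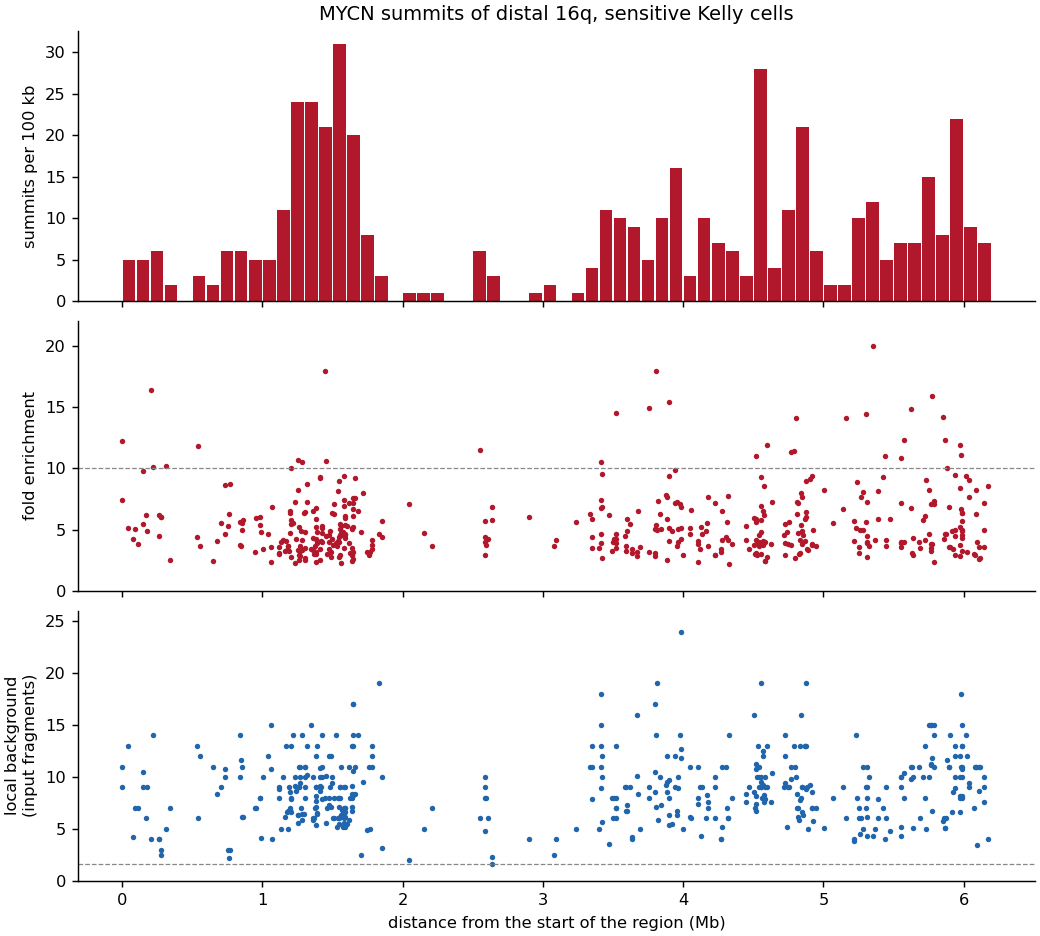
Summits per 100 kb (top), fold enrichment of each of the 473 members (middle, dashed line at 10) and their local background in input fragments (bottom, dashed line at the genome-wide mean of 1.61), against distance from the start of the region in Mb. The dense block stands out in the top panel just above 1 Mb, most of its points lie below a fold enrichment of 10, and the sparse stretch follows it.

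The dense block is made of many sites, and their low fold enrichment was not particular to it. Its fold enrichments ran from 2.27 to 17.9 with a median of 4.62 (4.21 to 5.11), and 5 of the 120, or 4.17% (1.37 to 9.46), were at least 10. In the terminal part 22 of 266 were, or 8.27% (5.26 to 12.3), with a median of 4.85 (4.46 to 5.11). The medians of these 2 stretches thus lie within each other's intervals. The sparse stretch was no higher, with a median of 4.40 (3.77 to 5.68). Of its 31 summits 1, or 3.23% (0.0816 to 16.7), was at least 10. The background in the block had a median of 8.06 input fragments, below the 9.0 of the terminal part and the 8.54 of all members and close to the 8.00 on the rest of the chromosome. It ran from 5.18 to 17, so no summit there was near the genome-wide mean. In 14 of them the background matched counts in the 10-kb window, and its median there was 6.26. Of all bins of 100 kb in the region, the one from 85.5 to 85.6 Mb held most summits, 31 in 21 intervals. The next was outside the block, from 88.5 to 88.6 Mb, with 28 summits in 25 intervals. Bins from 85.2 to 85.3 and from 85.3 to 85.4 Mb held 24 each.

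By 1-Mb bins, the one from 85 to 86 Mb had 147 summits in 111 intervals. It had a median fold enrichment of 4.38 (4.06 to 4.74) and 3.40% of its summits at 10 or more (1.11 to 7.76). The other 326 members had 4.92 (4.61 to 5.21) and 8.59% (5.78 to 12.2). The median ChIP fragments were 62 (56 to 69) and 71 (65 to 76), and the median background 8.27 (8.00 to 9.0) and 8.89 (8.00 to 9.0). The dense bin thus lowers the regional values, though not through the dense block alone. Its occupied 100-kb bins outside the block had median fold enrichments of 3.62, 3.56, 3.59 and 4.67, against 4.62 over the block. Without the bin from 85 to 86 Mb the share at 10 or more still lay below the 12.9% on the rest of the chromosome. The intervals of these shares overlap (5.78 to 12.2 and 11.5 to 14.4).

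The list has 2 denser bins, and they differ from this one in background. The bin of chromosome 17 from 79 to 80 Mb, with 186 summits, had a median background of 14 input fragments (13.4 to 14.6) and a median of 106 ChIP fragments. The bin of chromosome 19 from 1 to 2 Mb, with 169 summits, had 10.0 (9.10 to 10.0) and 81. The bin of distal 16q had the lowest of the 3, 8.27 input and 62 ChIP fragments. Fold enrichments of 10 or more made up 3.76% (1.53 to 7.60) of the bin on chromosome 17, 13% (8.34 to 19) of that on chromosome 19 and 3.40% of that on chromosome 16. Median interval widths were 432, 349 and 296 bp, in the same order.

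The sparse stretch had few sites, and some of them lay over low input. The 3 longest stretches without a peak were from 86215470 to 86551371 (336 kb), from 86636679 to 86903292 (267 kb) and from 84342016 to 84538339 (196 kb). In the whole region 8 stretches exceeded 100 kb, 7 of them inside the sparse stretch. Together these 8 stretches span 1.52 Mb of the 6.17 Mb region. They make up 2.17% of the 368 gaps between member intervals, against 10.5% of 1540 gaps on the rest of the chromosome. This share of gaps falls as the density that chose the region rises. Background in the sparse stretch ran from 1.61 to 19 input fragments with a median of 7.0, and the lowest 10% were up to 2.44, against 5.99 in the dense block. A site at 86636590 was the single member at the genome-wide mean, with 22 ChIP fragments and a fold enrichment of 5.80. Its neighbour at 86636249 had a background of 2.24, 33 ChIP fragments and a fold enrichment of 6.84. A site at 86050141 had 1.96, 31 and 7.05. The other 2 of the 5 lowest backgrounds were 2.21 at 84764196, before the dense block, and 2.44 at 85709332, at the start of the sparse stretch. In contrast, a site at 86551486 was strong, with 124 ChIP fragments over a background of 6.0 and a fold enrichment of 11.5. It lies at the end of the longest gap and was the single summit of the sparse stretch with a fold enrichment of at least 10.

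The input level around the sites was described from the background window of the peak caller. Where the largest background window was the 10-kb one, the value gives the input level around a site. Over 36 members it ranged from 2.21 to 8.37 with a median of 5.26, which is 3.28 times the mean of the genome. Over 117 summits on the rest of the chromosome it ranged from 1.61 to 9.13 with a median of 2.70. The median was 3.28 on the short arm (61 summits) and 2.44 on the long arm up to 84 Mb (56 summits). Only 7.61% of the members and 5.53% of the summits on the rest of the chromosome have such a value, so it describes a selected part of each. Inside the region this median was 6.26 in the dense block (14 summits), 5.06 in the terminal part (12 summits), 3.98 before the dense block (5 summits) and 3.11 in the sparse stretch (5 summits). These medians rest on few summits, and their differences were not tested. Copy number and accessible chromatin can both raise the input, and these values cannot tell them apart.

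The 10 strongest members were spread over the region, with 8 of the 10 in the terminal part, from 87.4 Mb on. That part held 56.2% of all members. The highest fold enrichment, 20, was at 89356044 in an interval from 89355909 to 89356179, with 165 ChIP fragments over a background of 4.34. It ranked 16 on chromosome 16 and 499 in the list. Sites at 87811676 and 85450139 reached 17.9 each, with 226 and 250 ChIP fragments over 7.14 and 8.00 input fragments. A site at 84209082 reached 16.4 with only 128 ChIP fragments, since its background was 4.06. These 4 sites show both ways to a high value, a high ChIP signal and a low background.

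The remaining 6 of these sites ran from 15.9 down to 14.4. They were at 89778316 (15.9), 87903256 (15.4), 87757006 (14.9), 89627241 (14.8), 87526497 (14.5) and 89307383 (14.4). The site at 85450139 was the only one of the 10 in the dense block, which held 25.4% of all members. Of the 10, 7 were the single summit of their interval, as were 298 of all 473 members. Only 2 had no other interval within 10 kb, a state shared by 20.7% of all members. These were the sites at 89356044 and 84209082, whose nearest neighbours were 11.8 and 11.2 kb away. The site at 89307383 had its nearest neighbour 80 bp away.

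By ChIP fragments alone the order changed. The most, 255, were over the summit at 87903256, in an interval of 1474 bp with 3 summits. It was followed by 85450139 with 250, 89627241 with 248, 88794527 with 247 and 88803981 with 240. Of these 5 sites 3 were also among the 10 of highest fold enrichment. The site at 88794527 was not, because its background of 13 input fragments brought its fold enrichment down to 11.4. The site at 88803981 had a background of 10.0 and a fold enrichment of 14.1. The highest background of any member, 24.0 input fragments, was at 87984602, where 163 ChIP fragments gave a fold enrichment of 4.22. At 4 further members it was 19.0, with fold enrichments from 4.67 to 6.40.

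Member intervals stood close together. Another interval lay within 10 kb of 79.7% of them (75.2 to 83.7), against 62.3% (59.8 to 64.7) on the rest of the chromosome and 79.2% (74.5 to 83.4) at the short arm end. This share grows with the density that chose the region. The median gap between neighbours was 7.18 kb, and 20.4% of the gaps were under 1 kb, against 15.2 kb and 16.4% on the rest of the chromosome. Joining intervals with gaps of at most 10 kb gave 75 clusters of at least 2 intervals and left 75 intervals alone. Clusters of 6 or more intervals numbered 10 and held 29.3% of the member intervals, against 24 such clusters with 12.6% of the intervals on the rest of the chromosome.

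The 2 largest clusters were long and thinly covered. The first, from 85508872 to 85591315, spanned 82.4 kb with 31 summits in 21 intervals, which covered 10.8% of it. In the whole list, 7 of 9882 clusters had more summits, and none of those was on chromosome 16. Its median fold enrichment was 4.62 and its highest 9.34. The second, from 88503742 to 88583413, spanned 79.7 kb with 28 summits in 25 intervals and had a median of 4.05. The third, from 89972044 to 89992787, was compact, with 15 summits in 8 intervals over 20.7 kb, 26.4% of it covered, a median fold enrichment of 5.21 and a median of 104 ChIP fragments. A cluster from 85641016 to 85660567 was like it in size, with 15 summits in 7 intervals over 19.6 kb.

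Among the members, crowded and lone intervals had similar fold enrichments, within these intervals of counting error. In clusters of 6 or more intervals the median fold enrichment was 4.63 (4.25 to 5.11), in smaller clusters 4.62 (4.21 to 4.98), and at intervals alone 4.97 (4.46 to 5.63). Values of 10 or more made up 6.71%, 6.19% and 9.18%, with intervals that overlap. On the rest of the chromosome, intervals alone had a median of 5.56 (5.34 to 5.84) and 14.5% (12.1 to 17.1) at 10 or more. Those in clusters of 6 or more had 5.07 (4.72 to 5.42) and 7.82% (5.02 to 11.5). The median of the lone members, 4.97, was thus below that of lone intervals elsewhere on the chromosome, but the intervals of the medians overlap.

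The widest member interval lay inside the largest cluster. It ran from 85586687 to 85589095, was 2409 bp wide and held 6 summits, the most of any member interval. Its first summit, at 85587111, was the highest, with 144 ChIP fragments and a fold enrichment of 9.34, and the other 5 ran from 3.49 to 7.44. The interval from 85644132 to 85646128 was 1997 bp wide with 5 summits of 3.46 to 6.64. The interval from 87416933 to 87418575, 1643 bp wide, held 4 summits, of which the last reached 10.5 with 194 ChIP fragments. A narrower interval from 89312915 to 89314196 also held 5 summits, with fold enrichments from 2.74 to 7.22. Inside intervals, neighbouring summits of the members were a median of 286 bp apart (quartiles 218 and 360), against 310 bp (232 and 394) on the rest of the chromosome. Most member intervals, 298 of 369, held a single summit and had a median width of 241 bp, close to the 245 bp of such intervals elsewhere on the chromosome.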

How the data were processed

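The files used were 2 peak lists with identical rows, of which the list named for the sensitive cells was described. Per the submitters' processing notes, the build was hg19 and the tools were MACS2 2.1.1, deepTools 2.2.4, Picard, STAR 2.5.1b and SAMtools 1.3.1, with no settings. The sources used here do not say how ChIP samples were combined. The deposited values are, per summit, a fold enrichment, which is a ratio to the local background, a −log10 p-value, a −log10 q-value and an integer score, 10 times the −log10 q-value without decimals.

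ChIP fragments and background were computed by solving, with the MACS2 relations, fold = (scaled ChIP pileup + 1)/(background + 1) and the Poisson upper tail for p. A scale of 0.641, found by grid search, matched −log10 p within 0.0005 at 64657 of 64657 summits, and for 29 summits, 1 a member, a second fragment number met this tolerance. The recovery of fragment numbers was tested on simulated data with whole-number backgrounds or a fixed low value. Fractional backgrounds of the wider windows and the assignment to windows were not simulated. ChIP fragments were 1.56 times input fragments. A background was assigned to a window of the peak caller where it was within 0.001 of a multiple of that window's step.

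Densities run to the last peak and count unmappable sequence. Shares carry exact Clopper-Pearson intervals, medians order-statistic intervals, all at 95%. No test was made, because there is 1 list for both samples. Members, lists and comparisons were chosen with earlier results of these data known. Named sites are the 10 of highest fold enrichment, the 5 with most ChIP fragments, the 5 of highest and of lowest background, the 3 widest intervals, those with most summits, the 3 largest clusters, gaps and 100-kb bins, and the boundary sites. Others were chosen after their values were seen. Scripts ran under Python 3.11.15 with scipy 1.17.1, numpy 2.4.6, matplotlib 3.10.9 and pandas 2.3.3.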

Additional observations from a re-analysis of the deposited data

How the results depend on the processing

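No paired analysis was possible because both ChIP samples share 1 list, and no replicate could be left out. The density ratio to the rest of chromosome 16, 3.04, became 2.42 with a fold enrichment of at least 5, 2.73 with a start at 83 Mb and 2.27 over occupied 1-Mb bins. Among alternatives chosen after seeing the data, it was 1.64 with a fold enrichment of at least 10, 2.5 without the bin from 85 to 86 Mb, and 0.926 against the short arm end of equal length. The ratio of median backgrounds, 1.07, became 0.924 against the short arm end. The ratio of median fold enrichments, 0.873, was 0.844 to 0.910 under all 6 alternatives. The share of member intervals with a neighbour within 10 kb, 79.7%, was 63.7% within 5 kb, 95.7% within 25 kb and 67.4% for intervals reaching a −log10 q of 10. The 75 clusters became 46 when joined within 25 kb. No member had fewer than 18 ChIP fragments; how far depth sets this number was not tested.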
